A study of Mus musculus with 12 samples.

Results

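During the conversion of mouse embryonic fibroblasts (MEF) to induced pluripotent stem cells (iPSC), 5451 of 115000 accessible regions were listed at Stage2 and at no other stage. They are the regions of the common set that overlap, by at least 1 bp, an interval of the Stage2 list and none of the MEF, Stage1 or iPSC lists, 4.74% of all regions. The deposited list of a stage holds intervals marked as found in all 3 of its libraries, so the choice rests on the same ATAC-seq libraries as the counts. ATAC-seq marks open chromatin by the sites where the Tn5 transposase inserts sequencing adapters. Each of the 4 groups had 3 libraries, all from cells of a mixed C57BL/6 and 129 background: unsorted MEF, Stage1 cells at day 6, Stage2 cells after 4 further days, and established iPSC. The 3 later groups were sorted for green fluorescence from an Oct4 reporter, Oct4 being the product of Pou5f1, during what the labels call 3c enhanced reprogramming; what 3c stands for is not stated by them. Sorting and stage cannot be told apart in comparisons with MEF, and nothing in the labels says whether libraries of a stage came from separate cultures; the p-values cover only how these libraries varied, which may be technical. A lower level in such bulk samples can come from fewer cells with the region open or from less signal per cell, which cannot be told apart.

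Reprogramming takes fibroblasts through loss of the mesenchymal programme and gain of an epithelial one before the pluripotency network is fully active. Pluripotency itself has a naive form, carried by factors such as Esrrb and Tfcp2l1, and formative and primed forms of the later epiblast, in which Otx2 and the de novo DNA methyltransferases are active. Promoters are often open in many cell types, whereas distal enhancers differ more between cell states.

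Libraries held between 14310290 and 32229388 reads, of which between 1034936 and 6261903 fell in regions; 4.49% to 8.12% of reads were in regions after the MEF stage, against 11.3% to 22.1% in MEF. The regions listed only in Stage2 were shallow: summed over the 3 libraries of a stage, the median region had 9 reads in MEF, 18 in Stage1, 37 in Stage2 and 22 in iPSC. A low-count filter left 3700 of the 5451 (67.9%) in the tests, and the other 1751 were not tested. The filter asks for enough reads in any 3 libraries, and the mean was highest in Stage2 for 74.7% of the regions. Many could thus pass through the stage that chose them, which bears on every count and median over tested regions.

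Among the few of these regions that overlap a promoter were those at Otx2 and Pou5f1, both transcription factors of pluripotent cells, Tdgf1, a co-receptor of Nodal, and Cldn7, a tight junction protein. Their RefSeq promoters (GRCm38.p6, which is mm10; 250 bases before to 50 after the start) are shown because the Stage2-only region lies on them. Capitals mark exact matches, on either strand, to 23 motifs searched. The Otx2 promoter, chr14:48662685-48662984 on the minus strand, had 234 of its 300 bases in the region, which ends just upstream of the start site, and no match. This start site is inside the Otx2 gene span, and the region lay 4.39 kb from the nearer gene end. The Pou5f1 promoter, chr17:35505782-35506081 on the plus strand, lay wholly in its region and had matches for GRHL (AACCNGTT), the GC box (GGGCGG) and the CCAAT box (CCAAT). The Tdgf1 promoter, chr9:110946109-110946408 on the minus strand, had 192 bases in its region and 1 GC box. The Cldn7 promoter, chr11:69965171-69965470 on the plus strand, lay wholly in its region with matches for ETS (CCGGAAGT) and the GC box. The start site there is also inside the gene span, with the region 0.372 kb from the nearer gene end.
Otx2: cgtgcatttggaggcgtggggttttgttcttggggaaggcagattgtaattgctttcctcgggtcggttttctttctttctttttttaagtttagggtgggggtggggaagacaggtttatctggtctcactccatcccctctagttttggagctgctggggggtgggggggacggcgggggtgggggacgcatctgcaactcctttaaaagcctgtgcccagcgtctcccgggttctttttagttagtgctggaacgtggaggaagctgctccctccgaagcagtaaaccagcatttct
Pou5f1: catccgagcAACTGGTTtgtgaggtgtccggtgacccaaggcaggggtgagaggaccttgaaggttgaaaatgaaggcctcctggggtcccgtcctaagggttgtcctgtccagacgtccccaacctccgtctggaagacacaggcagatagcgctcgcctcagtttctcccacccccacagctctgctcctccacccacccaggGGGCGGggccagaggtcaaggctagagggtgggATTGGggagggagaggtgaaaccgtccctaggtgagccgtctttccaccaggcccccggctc
Tdgf1: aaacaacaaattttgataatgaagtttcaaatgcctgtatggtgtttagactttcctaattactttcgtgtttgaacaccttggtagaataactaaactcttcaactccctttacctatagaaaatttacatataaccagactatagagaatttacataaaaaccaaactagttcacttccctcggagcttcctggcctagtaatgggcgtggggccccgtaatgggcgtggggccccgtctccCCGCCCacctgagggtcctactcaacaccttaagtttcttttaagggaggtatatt
Cldn7: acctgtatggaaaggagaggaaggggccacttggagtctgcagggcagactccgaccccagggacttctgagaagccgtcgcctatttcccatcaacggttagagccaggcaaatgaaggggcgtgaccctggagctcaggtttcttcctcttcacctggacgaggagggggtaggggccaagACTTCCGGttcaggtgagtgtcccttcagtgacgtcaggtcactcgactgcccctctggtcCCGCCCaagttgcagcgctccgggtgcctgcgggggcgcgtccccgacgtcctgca

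At these 4 promoters the levels over the stages were unlike. Values are CPM (counts scaled to the reads in regions of a library, adjusted by TMM, a factor that levels most regions between libraries). The Otx2 region had 0, 0.553 and 0.948 CPM in MEF, 3.69, 5.04 and 5.16 in Stage1, 15.02, 15.8 and 18.9 in Stage2, and 3.14, 4.01 and 7.53 in iPSC. All Stage2 libraries were above every other library, and iPSC overlapped Stage1. The Pou5f1 region had 0.711, 1.43 and 1.66 CPM in MEF, 5.16, 5.53 and 8.64 in Stage1, 14.3, 17.8 and 18.9 in Stage2, and 9.02, 11.7 and 12.6 in iPSC. The iPSC libraries lay between those of Stage1 and Stage2 without overlap, though the log2 fold change of iPSC over Stage1, 0.75 ± 0.40 (SE), did not pass (edgeR adjusted p = 0.194). The Tdgf1 region had 0.711, 0.829 and 2.38 CPM in MEF, 13.4, 13.7 and 16.6 in Stage1, 17.0, 19.5 and 22.5 in Stage2, and 5.01, 11.7 and 12.6 in iPSC. Stage1 was already near Stage2, and the iPSC libraries were the lowest of the 3 later stages. The Cldn7 region had 0.553, 1.18 and 1.91 CPM in MEF, 8.25, 13.7 and 22.1 in Stage1, 11.3, 11.6 and 19.5 in Stage2, and 5.85, 7.01 and 11.0 in iPSC. Stage1 and Stage2 overlapped there, and the Stage1 mean of 14.7 CPM was slightly above the Stage2 mean of 14.2. None of the other 3 promoters passed between iPSC and Stage1: the log2 fold change was 0.08 ± 0.53 at Otx2 (edgeR adjusted p = 0.939), -0.53 ± 0.35 at Tdgf1 (0.316) and -0.87 ± 0.37 at Cldn7 (0.0945).

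**Figure D1:**
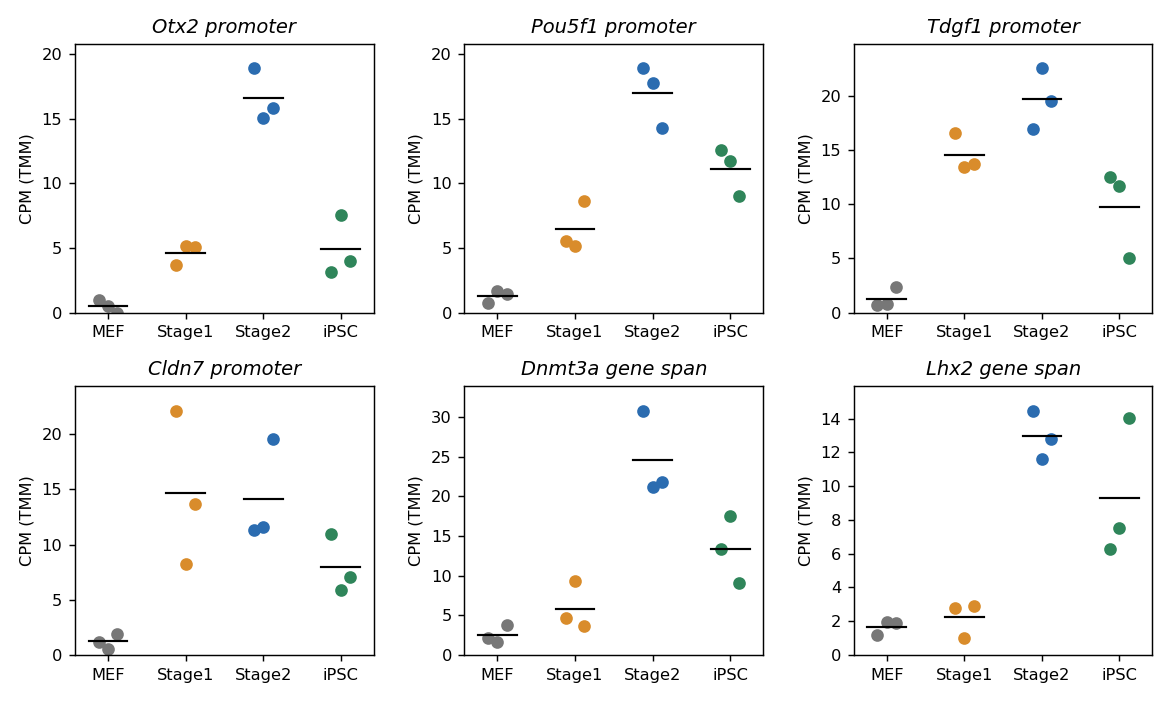
CPM of 6 regions listed only in Stage2, by stage (x axis); each panel has its own y axis from 0, points are the 3 libraries of a stage and black bars their mean. The Otx2 region averaged 4.63 CPM in Stage1, 16.6 in Stage2 and 4.89 in iPSC, and the Lhx2 region 2.23, 13.0 and 9.28.

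Across all 5451, the regions were partly open before and after Stage2. The median of their mean levels was 1.03 CPM in MEF, 5.18 in Stage1, 8.49 in Stage2 and 6.46 in iPSC; over all 115000 regions these medians were 7.01, 4.36, 4.84 and 5.42 CPM. The mean was highest in Stage2 for 4072 regions (74.7%), in iPSC for 905, in Stage1 for 470 and in MEF for 4. In 965 (17.7%) all 3 Stage2 libraries were above the other 9, which held for 1.92% of all regions. Since the Stage2 list chose the regions, these shares describe the choice. The Stage2 mean was at least 2 times the higher of the Stage1 and iPSC means in 312 (5.72%) and at least 3 times in 16, with 0.5 CPM added. In the same way, 911 were called higher in Stage2 than in Stage1 (5.14% of all tested regions were) and 0 lower (5.62%), 3628 higher than in MEF (40.1%) and 0 lower (42.6%), and 0 higher (0.498%) and 132 lower (1.36%) in iPSC than in Stage2. At an unadjusted p under 0.05 the counts of 0 were 6, 0 and 7. The threshold was an edgeR adjusted p under 0.05; these are contrasts that the lists used, and nothing is read from them.

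Set against the read density outside all regions of the same library, the regions stood at 1.13, 1.34 and 1.58 times this background in MEF, 2.73, 2.85 and 3.18 times in Stage1, 3.42, 3.71 and 4.44 times in Stage2, and 2.10, 2.48 and 2.55 times in iPSC. The mean was 2.38 ± 0.241 in iPSC and 2.92 ± 0.231 in Stage1 (SD, n = 3 each), with no overlap (two-sided exact permutation p = 0.1, the smallest that 3 against 3 allows). By median CPM per library the order was the other way, 6.33 ± 0.341 CPM in iPSC and 4.94 ± 0.288 in Stage1 (exact permutation p = 0.1). The direction between iPSC and Stage1 depends on the scale. The share of reads in regions moved with it, at 4.49% to 5.25% in iPSC and 7.36% to 8.12% in Stage1, and regions of all 4 lists stood 4.47 ± 0.527 times above background in iPSC and 8.33 ± 0.480 times in Stage1 (SD, n = 3 each); the part of this in the result was not tested.

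**Figure D2:**
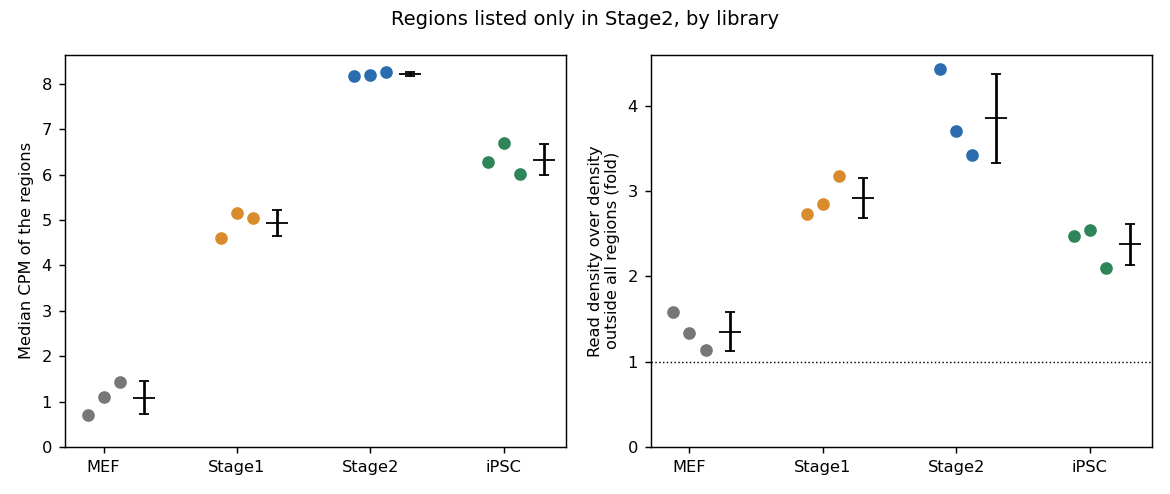
Levels of the 5451 regions in the 12 libraries; left, median CPM; right, read density over the density outside all regions, with a dotted line at 1. Points are libraries, bars the mean ± SD; Stage2 is highest on both scales, and iPSC is above Stage1 only on the left.

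Levels in Stage1 and iPSC were also set against those in MEF, a stage whose list lacked the regions as well. Stage1 was higher than MEF in 3149 (57.8% of the 5451; 40.0% of all tested regions were, or 24.7% of all 115000) and lower in 3 (40.4% of all tested). iPSC was higher than MEF in 3466 (63.6%; 39.1% of all tested, or 24.2% of all 115000) and lower in 0 (43.0% of all tested; also 0 at an unadjusted p under 0.05). The means of Stage1 and iPSC were both above that of MEF in 5296 regions (97.2%). With libraries thinned to equal reads in regions the shares higher were 21.7% for Stage1 and 26.0% for iPSC, against 18.5% and 18.3% of all 115000 regions. Absence from the MEF list is part of the rule, and MEF libraries held 2933421 to 6261903 reads in regions, against 1034936 to 1531153 in Stage1 and iPSC, so these values describe the choice and nothing is read from them.

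iPSC and Stage1 are the sorted stages on either side of Stage2, and the lists of both lack the regions. That choice removed regions strongly open at either stage, which limits how far the levels of iPSC and Stage1 can differ, so the counts, medians and p-values of this comparison describe regions that neither list held. Of the 5451, 310 were higher in iPSC (5.69%) and 26 were lower (0.477%), with the 1751 regions not tested included. Of all tested regions 6.74% were higher and 9.60% lower, which is 4.17% and 5.93% of all 115000. The groups did not overlap in 301 of the called regions; the same count was not made over all regions, so nothing is read from it. Leaving out 1 library gave between 2.62% and 7.04% higher: 193, 206 or 143 regions without Stage1 replicate 1, 2 or 3, and 178 or 201 without iPSC replicate 1 or 2. Without Stage1 replicate 3 there were 16 lower, and without iPSC replicate 2 there were 13. The shares over all regions in these refits are not given, so the smaller counts are not read as particular to these regions. DESeq2 called 2.11% higher and 0.110% lower, against 2.06% and 3.31% of all 115000, and thinned libraries gave 3.19% and 0.257%, against 3.44% and 4.30%. On the same denominator, the share higher was thus above that of all regions as first fitted and slightly below it after thinning. The median log2 fold change was 0.31 over the tested members and 0.04 over all tested regions; over all 5451, with 0.5 CPM added, it was 0.28, and over all 115000 it was 0.17. With whole-library scaling, which takes all reads as the library size and moves the median of all regions to -0.52, 79 were higher (1.45%) and 252 lower (4.62%), against 0.974% and 13.7% of all 115000, and the median of the members was -0.24. Their median lay above that of all regions by both scalings, with opposite signs. The neighbouring classes were to either side: the median was -0.80 for regions listed only in Stage1, -0.56 for those of the Stage1 and Stage2 lists, and 0.98 for those of the Stage2 and iPSC lists, and those 3 classes were chosen by this contrast. A median between them follows in part from the choice of the regions.

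**Figure D3:**
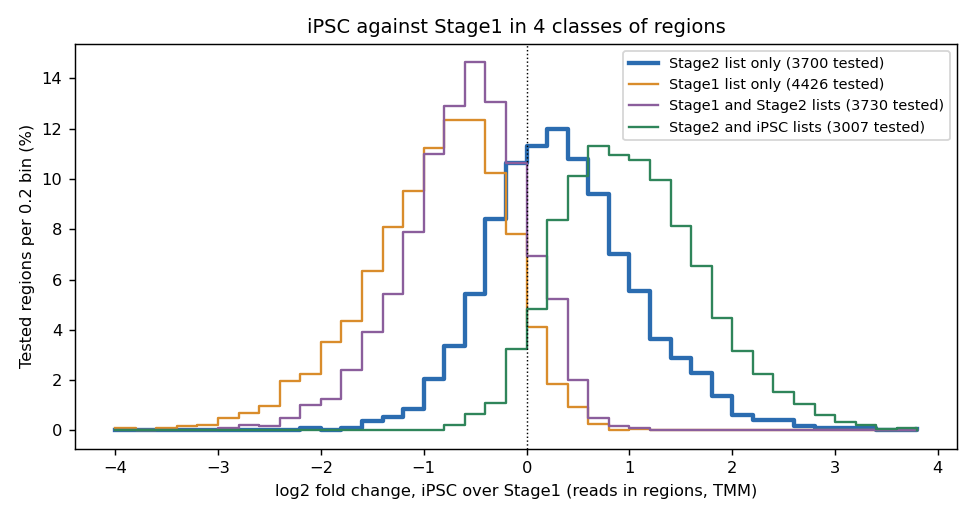
Distribution of the log2 fold change of iPSC over Stage1 in 4 classes of tested regions; the x axis is the log2 fold change and each line gives the percent of a class's regions per bin. The regions listed only in Stage2 lie between the classes that also have the iPSC list or the Stage1 list, with a median of 0.31.

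The regions with the largest rises were nearly empty in Stage1. In an intergenic region on chromosome 10 (chr10:36276151-36276450), iPSC libraries had 3.92, 10.03 and 10.02 CPM from 27 reads, against 0, 1.03 and 0 in Stage1, where 1 read was counted in all (edgeR adjusted p = 0.000149). A region inside Atp2b2, a plasma membrane calcium pump gene (chr6:113884801-113885250), had 9.02, 10.2 and 12.5 CPM in iPSC, against 0, 0 and 2.06 in Stage1 (edgeR adjusted p = 2.84e-05). A region inside Dmd, the dystrophin gene (chrX:82901551-82901900), had 7.85, 11.0 and 12.5 CPM in iPSC, against 0, 0.922 and 2.06 in Stage1 (edgeR adjusted p = 0.000112). One inside Arhgef3, which codes for a guanine nucleotide exchange factor (chr14:27130651-27131000), had 6.01, 10.9 and 11.8 CPM in iPSC, against 0.720, 0.922 and 1.03 in Stage1 (edgeR adjusted p = 0.000128). A second intergenic region on chromosome 10 (chr10:111144451-111144750) had 6.69, 9.42 and 14.0 CPM in iPSC, against 0, 1.03 and 1.84 in Stage1 (edgeR adjusted p = 0.000111). All 5 were without overlap between iPSC and Stage1, on at most 3 reads in Stage1, so no fold is given. Their Stage2 means of 6.87 to 8.84 CPM were near their iPSC means of 7.99 to 10.6 CPM. Among the falls, the region 7.87 kb from Rps6ka3, a ribosomal S6 kinase gene (chrX:159247401-159247800), had 1.57, 1.67 and 3.01 CPM in iPSC, against 6.48, 7.22 and 13.8 in Stage1 (log2 fold change -2.12 ± 0.58 SE, edgeR adjusted p = 0.00626). It did not pass without Stage1 replicate 1, where the log2 fold change was -1.74. A further 3 of the 5 largest falls lay more than 10 kb from a protein-coding gene, with log2 fold changes of -2.13 ± 0.52, -2.08 ± 0.56 and -1.86 ± 0.49 (SE; edgeR adjusted p = 0.00188, 0.00537 and 0.00417). The fall of 2.08 did not pass without iPSC replicate 1.

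Genes were linked to a region that overlaps the gene or lies within 10 kb of either end. Of the 5451 regions 3489 (64.0%) had a protein-coding gene, 742 of them more than 1, and 3587 of 21883 genes (16.4%) had at least 1. Lists of known genes differed widely from that share. In the list of primed and formative epiblast genes 15 of 27 (55.6%) had one, in the naive pluripotency list 14 of 27 (51.9%), in the list of chromatin and DNA methylation genes 14 of 28 and in the epithelial list 14 of 29 (48.3%). In the mesenchymal list it was 3 of 31 (9.68%), and in the TGF-beta and BMP list 4 of 31 (12.9%). Genes of these lists lay near more regions of any kind than most genes do: the median number of linked regions was 5 per gene in the naive, primed and epithelial lists, 7 in the mesenchymal list and 3 over all genes. Regions listed only in Stage1 lay near 8 primed genes (29.6%), 12 naive genes (44.4%), 10 epithelial genes (34.5%) and 8 mesenchymal genes (25.8%), against 17.1% of all genes. They lay near 12 chromatin genes (42.9%), 13 Wnt genes (44.8%) and 8 FGF and ERK genes (33.3%). They also lay near 7 TGF-beta and BMP genes (22.6%) and 3 neural ectoderm genes (11.1%). No test of these shares was made. They are not separate, since Grhl2 and Krt18 are in the primed and epithelial lists and Dnmt3a and Dnmt3b in the primed and chromatin lists. Among the genes with no region listed only in Stage2 were Nanog, Zfp42 and Klf4 of the naive list. Fgf5, Pou3f1 and Nodal of the primed list had none either. For cell types the sort could still hold, the share was 6 of 15 endothelial, 5 of 11 neural crest, 2 of 11 skeletal muscle and 2 of 16 blood genes; their part in the results was not tested. The remaining lists had 8 of 27 neural ectoderm, 5 of 21 mesoderm, 4 of 25 endoderm, 4 of 18 trophectoderm, 3 of 22 germline, 10 of 29 Wnt, 7 of 24 FGF and ERK, and 4 of 29 AP-1 and somatic factor genes.

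**Figure D4:**
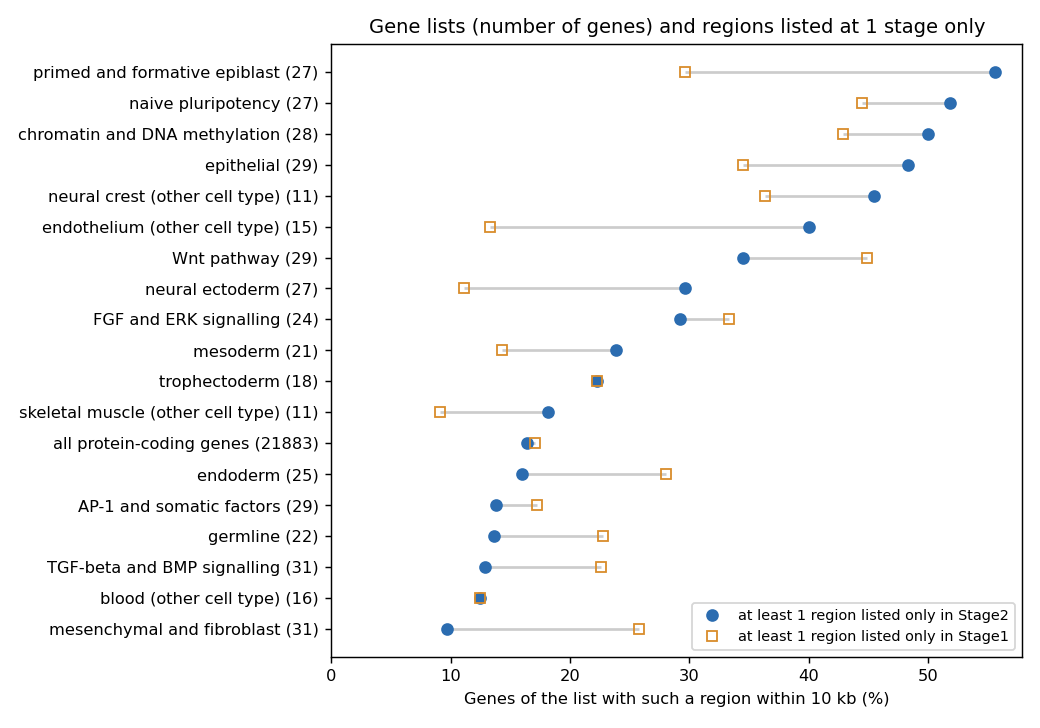
Share of the genes of each list with at least 1 region within 10 kb that is listed only in Stage2 or only in Stage1, as percent of the list's genes. The primed and formative list is highest at 55.6% and the mesenchymal list lowest at 9.68% for Stage2 among the 18 lists, with all genes at 16.4%.

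In the primed and formative list, the region of highest Stage2 level lay inside Dnmt3a, a de novo DNA methyltransferase (chr12:3889701-3890350). It had 1.66, 2.13 and 3.82 CPM in MEF, 3.60, 4.61 and 9.28 in Stage1, 21.2, 21.8 and 30.8 in Stage2, and 9.02, 13.3 and 17.6 in iPSC. Stage2 was above every other library, and iPSC and Stage1 overlapped at 1 library each. The iPSC level was higher than that of Stage1 (log2 fold change 1.27 ± 0.41 SE, edgeR adjusted p = 0.0201), a call lost by whole-library scaling, by DESeq2 and without Stage1 replicate 1 or 3 or iPSC replicate 1 or 2. Foxd3, a forkhead factor of epiblast and neural crest, had 2 such regions, of which the one at its promoter averaged 9.76 CPM in Stage1, 9.32 in Stage2 and 11.3 in iPSC, so Stage2 did not stand out there. The region 0.872 kb from Lefty1, an inhibitor of Nodal, had 0.477, 0.711 and 0.829 CPM in MEF, 3.09, 4.32 and 11.1 in Stage1, 9.44, 10.5 and 16.4 in Stage2, and 11.8, 13.0 and 16.7 in iPSC. iPSC was above Stage1 in every library (1.17 ± 0.40, edgeR adjusted p = 0.0295). That call was lost with whole-library scaling, without the filter, by DESeq2, after thinning and without any 1 of 5 libraries, all but Stage1 replicate 1 among those compared.

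Among naive factors, Esrrb, an orphan nuclear receptor, had 3 of the regions in its gene body. The strongest (chr12:86497051-86497500) had 0.474, 0.553 and 3.34 CPM in MEF, 6.45, 7.92 and 11.3 in Stage1, 18.2, 20.5 and 21.8 in Stage2, and 10.9, 11.0 and 13.0 in iPSC. Stage2 did not overlap the other stages, while the iPSC and Stage1 libraries overlapped (0.45 ± 0.38, edgeR adjusted p = 0.459). The region 0.802 kb from Dppa5a, a gene of naive cells (chr9:78365801-78366250), had 0.474, 0.553 and 1.91 CPM in MEF, 2.77, 4.12 and 5.76 in Stage1, 13.7, 15.1 and 16.5 in Stage2, and 10.03, 12.02 and 18.8 in iPSC, so iPSC and Stage2 overlapped. It was higher in iPSC than in Stage1 (1.65 ± 0.42, edgeR adjusted p = 0.0032), though not with whole-library scaling or without iPSC replicate 1. Dppa2, a gene of early embryos and naive cells, had a region on each side of the gene, with Stage2 means of 16.5 and 11.9 CPM, and Tfcp2l1, a factor of naive self-renewal, likewise with 11.8 and 10.4 CPM. The Tfcp2l1 region of 11.8 CPM averaged 13.3 CPM in Stage1, above its Stage2 mean.

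In the epithelial list, Cdh1, which codes for E-cadherin, had 3 regions. One inside the gene, 0.501 kb from its nearer end, had 6.45, 6.48 and 7.22 CPM in Stage1, 10.2, 15.1 and 15.8 in Stage2, and 7.53, 11.0 and 11.8 in iPSC, against 1.11 to 1.91 in MEF. The others averaged 10.1 and 8.53 CPM in Stage2 and 5.67 and 7.59 CPM in iPSC. A region 2.52 kb from Esrp1, an epithelial splicing factor, averaged 9.88 CPM in Stage1, 17.8 in Stage2 and 12.2 in iPSC. Grhl2, an epithelial transcription factor, had 2 weak regions of 6.83 and 6.17 CPM in Stage2, neither of which passed the low-count filter.

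Single regions also lay at developmental and chromatin genes. The region inside Lhx2, a LIM homeobox gene of the forebrain (chr2:38340601-38341100), had 1.18, 1.91 and 1.94 CPM in MEF, 1.03, 2.77 and 2.88 in Stage1, 11.6, 12.8 and 14.5 in Stage2, and 6.28, 7.53 and 14.0 in iPSC. It was higher in iPSC than in Stage1 (1.92 ± 0.54, edgeR adjusted p = 0.00749), but not with whole-library scaling or without Stage1 replicate 2 or iPSC replicate 3. The region inside Kdr, which codes for a VEGF receptor (chr5:75941851-75942400), had 0.720, 1.03 and 3.69 CPM in Stage1, 9.02, 10.2 and 13.8 in Stage2, and 4.71, 5.01 and 6.69 in iPSC. iPSC and Stage1 did not overlap, and the difference did not pass (1.61 ± 0.66, edgeR adjusted p = 0.0796). The region 2.42 kb from Smarca4, the Brg1 ATPase of BAF complexes, averaged 5.90 CPM in Stage1, 16.4 in Stage2 and 7.96 in iPSC. Of the Wnt list, 10 of 29 genes had a region, fewer than the 13 with a region listed only in Stage1. Among the 10 were Fzd7, a receptor, with a Stage2 mean of 13.5 CPM, and Znrf3, a ubiquitin ligase that removes Frizzled receptors, with 12.7 CPM.

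Of the 8 regions with the highest Stage2 level, 5 lay more than 10 kb from any protein-coding gene of the annotation. One of them (chr2:45910851-45911600) had 0, 0.553 and 0.954 CPM in MEF, 1.03, 2.88 and 4.61 in Stage1, 23.2, 23.3 and 35.9 in Stage2, and 5.01, 7.06 and 10.9 in iPSC. Every Stage2 library was above 23 CPM there and no other library above 11. The highest of all, inside Sfi1, a centrosome gene (chr11:3183701-3184050), overlapped between Stage1, Stage2 and iPSC, with 11.4 to 36.7 CPM in MEF, 52.6 to 61.8 in Stage1, 53.5 to 75.2 in Stage2 and 61.9 to 82.2 in iPSC.

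The gamma protocadherin genes, which code for cell adhesion proteins of neurons and share their last exons, had 9 of the regions within reach of 18 overlapping genes on chromosome 18. Summed over the 9, the level was 21.5, 24.9 and 25.4 CPM in MEF, 39.6, 50.7 and 57.7 in Stage1, 89.3, 94.2 and 96.2 in Stage2, and 62.0, 67.1 and 81.1 in iPSC. The sums of the stages did not overlap, in the order MEF, Stage1, iPSC, Stage2. The top place of Stage2 describes the choice of the regions, and at some of the 9 the iPSC mean was below the Stage1 mean. By their linked regions not listed only in Stage2, 0 of the genes of this locus were called higher in Stage2 than in Stage1 (6.25% of all tested genes were). Of the 30 regions linked to these genes 10 were of the MEF list alone. The predicted genes Gm37013, Gm38666 and Gm38667, which extend over this locus and far upstream of it, were linked to these 9 and 1 more, the most of any gene. Apart from this locus, the genes with the most such regions were the long genes Etl4 with 9, Myo10, an unconventional myosin, with 8, Smyd3, a methyltransferase, with 7, and Ptprg and Pde4d with 6 each.

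The other regions of the same genes were compared as well. They are not Stage2-only regions themselves, but the genes were chosen through the Stage2 list, which rests on the same libraries. The shares below are therefore not independent of that choice. For the 149 genes with at least 3 of the regions (126 separate loci), reads were summed over all linked regions not listed only in Stage2. By this sum 30 genes (29 loci) were higher in Stage2 than in Stage1, 20.1% (6.25% of all tested genes were), and 4 were lower, 2.68% (7.61%). These genes hold more regions than most, with a median of 15 other regions, against 4 linked regions over all genes with a region. Among all tested genes with at least 15 linked regions, 15.1% were higher and 10.5% lower. That cut counts Stage2-only regions too, and the group includes the larger of the 149 genes but not the smaller. It is thus not a matched background. In iPSC against Stage2, 14 were higher, 9.40% (5.04% of all), and 11 lower, 7.38% (4.57%); among genes with at least 15 linked regions 24.4% were higher and 0.898% lower. Leaving out 1 library gave between 2.68% and 11.4% higher and between 1.34% and 9.40% lower in that comparison, the fewest higher without Stage2 replicate 2 or iPSC replicate 2 and the fewest lower without Stage2 replicate 1. Counts fell by more than 1.5 times, higher ones without Stage2 replicate 1 or 2 or any iPSC replicate, and lower ones without MEF replicate 2, Stage1 replicate 2 or 3, or any Stage2 or iPSC replicate. The shares over all genes in these refits are not given, so no change is read as particular to these genes. Of the 30 genes higher in Stage2 than in Stage1, 3 were lower and 3 higher again in iPSC. DESeq2, with its own scaling of the reads in regions, called 25 of the 149 higher in Stage2 than in Stage1. Its share over all genes is not given. Whole-library scaling moved the median of all genes to -0.39. By it, 0 of the 149 were called higher in Stage2 (0 also at an unadjusted p under 0.05) and 3 were lower (2.01%). Of all tested genes 0.259% were then higher and 7.34% lower. The rise is one relative to the other regions of a library.

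Cldn14, a tight junction gene with 8 other regions, had 55.6, 63.8 and 64.3 CPM summed over them in Stage2, against 29.9, 36.7 and 37.5 in Stage1 (log2 fold change 0.82 ± 0.16 SE, edgeR adjusted p = 0.000122). The libraries did not overlap, and iPSC stayed at 67.9 ± 5.20 CPM (SD, n = 3). Bcar3, an adaptor protein gene, had 125.9, 139.4 and 149.1 CPM in Stage2, against 74.4, 82.0 and 97.2 in Stage1 (0.72 ± 0.12, edgeR adjusted p = 6.45e-06), and was higher again in iPSC at 172.8 ± 27.6 CPM. Lrtm2 and Cacna2d4, a calcium channel subunit gene, overlap and share regions, so their rises of 0.94 ± 0.23 and 0.78 ± 0.22 are not separate (edgeR adjusted p = 0.00246 and 0.00888); that of Cacna2d4 did not pass without Stage1 replicate 3. Slc25a12, a mitochondrial carrier gene, rose by 0.70 ± 0.18 (edgeR adjusted p = 0.00498), but not without Stage1 replicate 2, and no rise of these 5 genes passed with whole-library scaling. The 4 falls were smaller than these 5 rises, which were picked as the largest. Some other called rises were smaller than every fall, such as that of Dst at 0.25 ± 0.08 (edgeR adjusted p = 0.0281). Auts2, a neurodevelopmental gene with 64 other regions, had 404.9, 410.5 and 416.9 CPM in Stage2, against 494.8, 602.5 and 605.1 in Stage1 (-0.47 ± 0.08, edgeR adjusted p = 2.28e-05), and 554.6 ± 12.1 in iPSC. Slc39a11 (-0.56 ± 0.09) and Macrod2 (-0.49 ± 0.09) are also long genes, and Pced1b (-0.37 ± 0.12) did not pass in 8 of the alternatives.

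The X chromosome held 202 of the regions, 3.71%, against 2.37% of all regions, 2.27% of those listed only in Stage1 and 1.28% of those listed only in iPSC. As a share of the regions not on the MEF list, Stage2-only regions made up 27.4% on X and 18.8% over the genome, the next chromosome being 14 with 21.4%. Levels on X were lower before and after Stage2: the median level of X members was 3.94 CPM in Stage1, 8.35 in Stage2 and 5.16 in iPSC, against 5.21, 8.50 and 6.51 CPM for members on other chromosomes. Reads on X in regions other than these were 1.71 ± 0.0730% of the reads in iPSC and 1.99 ± 0.0643% in Stage2 (SD, n = 3 each, exact permutation p = 0.1, the smallest possible), and 1.98 ± 0.0807% in Stage1 (Stage2 against Stage1, exact permutation p = 1.0). X reads were lower in iPSC over other regions as well, and their part in the X share of the list was not tested. Of the 118 X members tested, 12 were higher and 2 lower in iPSC than in Stage1, against 310 and 26 of the 3700 members tested over all chromosomes. The share over all tested X regions was not computed, and no difference between X and the other chromosomes is read from these counts.

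**Figure D5:**
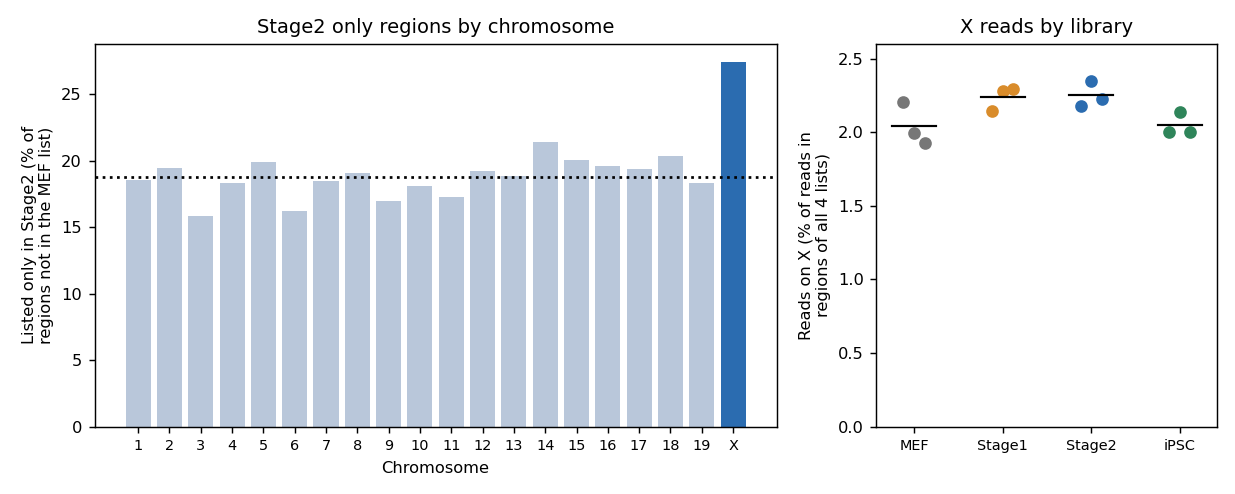
Left, regions listed only in Stage2 as a share of the regions not on the MEF list, by chromosome, with X in dark blue and a dotted line at the genome's 18.8%. Right, reads on X as a share of reads in regions of all 4 lists, by library, with the mean as a bar; iPSC averages 2.05% and Stage2 2.25%.

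A gene end lay within 1 kb of 8.70%, against 14.2% of all regions, 64.1% of regions of all 4 lists and 6.05% of those listed only in Stage1; 48.7% overlapped a gene, against 54.9% of all. They were narrow, with a median width of 350 bp (quartiles 300 and 450 bp), against 550 bp for all regions and 350 bp for those listed only in iPSC. Another region of the same class lay within 10 kb of 646 (11.9%), and an interval of another stage's list within 1 kb of 830 (15.2%). Of 32851 RefSeq promoters, 194 were overlapped, by 173 of the regions. Their median GC content was 57.2%, against 52.7% for all promoters and 62.7% for those under regions of all 4 lists. The GC box was in 44.8% of them (35.7% of all promoters), ZIC (CAGCAGG) in 15.5% (10.5%), RUNX (TGTGGTT) in 8.76% (5.27%), SOX (ACAAAG) in 19.6% (18.7%), and the TATA box (TATAAA) in 8.25% (13.6%). The CCAAT box was in 35.1% (37.4%), AP-1 (TGANTCA) in 7.73% (7.81%), TEAD (GGAATG) in 13.9% (14.7%), OTX (GGATTA) in 4.64% (7.06%), KLF (GGGTGTGG) in 2.06% (3.56%), the OCT octamer (ATGCAAAT) in 0.515% (1.74%), ETS in 3.61% (3.89%) and GRHL in 2.58% (2.09%). The other motifs searched were a SOX dimer site with the letters CCATTGTT, ESRRB with TCAAGGTCA, the GATA family with AGATAAG, TCF and LEF with ATCAAAG, the T-box family with AGGTGTGA, FOX with TGTTTAC and the E-box with CACGTG, besides NRF1, the CTCF core and the OCT-SOX composite, each in 0% to 8.76% of the 194 and 0% to 7.15% of all. The 185 promoters under regions listed only in Stage1 had ZIC in 17.8% and SOX in 22.7%, both above the shares at Stage2-only regions. They had the GC box in 32.4%, RUNX in 3.78% and the TATA box in 11.9%. The GC box, CCAAT box and TATA box were added after the promoters were seen, and the part of GC content in these shares was not tested. A match describes letters only, and some motifs overlap others, as the OCT octamer does the composite.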

How the data were processed

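ATAC-seq libraries of 4 groups, 3 each, were analysed from the deposited processed files. The authors deposited read counts per library for 115000 regions, with totals of reads outside regions and of ambiguous reads, and 1 interval list per stage. The build was mm10, and DESeq2 1.12.4, HTSeq 0.5.4p3 and Bowtie2 2.2.6 are named beside SAMtools 0.1.19 and Picard 2.6.0 without roles, per the submitters' processing notes. Not given in the sources used here are the peak caller and the treatment of duplicates and read ends. Ambiguous reads were 0.0311% to 0.230% and reads outside regions 77.7% to 95.5% of a library. Both stayed out of library sizes except in whole-library scaling.

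Counts were tested with edgeR 4.0.16 in R 4.3.3 (TMM, filterByExpr with minimum count 10 and total 15, robust quasi-likelihood F tests, 1 model of 4 groups, Benjamini-Hochberg adjusted p under 0.05) over 71069 regions or 17403 genes. Single values of libraries had exact permutation tests, two-sided. DESeq2 1.42.0 was an alternative. On simulated counts for Stage2 against Stage1, 41% of 2-fold and 91% of 4-fold changes were recovered over 71069 regions, and 74% and 100% over 17403 genes. The changed regions were drawn from those with more reads than the median Stage2-only region had. The spread between libraries was set, not estimated, so these rates do not carry over to regions as shallow as those described here. Genes are protein-coding RefSeq genes of GRCm38.p6, and all 382 genes of the 18 lists were found there. The RefSeq promoter table is not complete.

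The regions, gene lists and tests were chosen with earlier results of these data known. Named regions are the 8 with the highest Stage2 CPM, the 5 largest rises and 5 largest falls in iPSC against Stage1 among calls without overlap, and those of list genes with at least 2 members or of the 2 highest Stage2 levels in a list. Named genes are the 12 with the most members and, by other regions, the 5 largest rises and falls; only 4 fell. Only some of these are described, and some named by the rule are not reported here. The promoters shown, the GC, CCAAT and TATA boxes and the comparison with genes of at least 15 linked regions were chosen after values were seen.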

Additional observations from a re-analysis of the deposited data

How the results depend on the processing

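Of the alternatives that left no library out, 70 values stayed within 1.5 times of the reported one and 27 moved further; of the named regions and genes, 365 values kept their side of the threshold, 42 lost it and 0 reversed. Stage2 above Stage1 (16.7% of the 5451 regions) was 7.10% with whole-library scaling, 7.19% by DESeq2 and 8.59% with thinned libraries, and 8.24% to 20.8% with 1 library left out. Over all 115000 regions that share was 3.18% as first fitted, 0.957% with whole-library scaling, 1.49% by DESeq2 and 2.45% thinned. Stage2 above MEF (66.6%) was 27.1% thinned, while over all 115000 regions it was 24.8% as first fitted and 18.4% thinned. iPSC below Stage2 (2.42%) was 0.0550% by DESeq2, 1.14% thinned and 0.312% to 4.04% with 1 library left out. Of all 115000 regions 0.838% were lower as first fitted, 0.261% by DESeq2 and 0.573% thinned. iPSC above Stage1 (5.69%) was 1.45% with whole-library scaling, 2.11% by DESeq2, 3.19% thinned and 2.62% to 7.04% with 1 library left out, and iPSC below Stage1 (0.477%) was 4.62%, 0.110%, 0.257% and 0.238% to 0.642%. Stage1 above MEF (57.8%) was 89.5% without the filter and 21.7% thinned. iPSC above MEF (63.6%) was 42.3% with whole-library scaling and 26.0% thinned. Of all 115000 regions, 18.5% were higher in Stage1 thinned. In iPSC 14.6% of all were higher with whole-library scaling and 18.3% thinned. No share over all regions is given without the filter or with 1 library left out. Those moves are therefore not read as particular to these regions.

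For genes, Stage2 above Stage1 (20.1%) was 10% with at least 5 linked regions, 0% with whole-library scaling and 13.4% to 21.5% with 1 library left out; below Stage1 (2.68%) it was 2.01% to 4.03%. iPSC above Stage2 (9.40%) was 0% with whole-library scaling, 6.04% by DESeq2, 4.21% within 50 kb and 2.68% to 11.4% with 1 library left out. iPSC below Stage2 (7.38%) was 3.33% with at least 5 linked regions, 0% with whole-library scaling, 4.03% by DESeq2, 3.36% thinned, 16.0% within 50 kb and 1.34% to 9.40% with 1 library left out. A gene end lay within 5 kb of 25.1% of the regions. No share over all genes is set beside the gene values here, so no move is read as particular to these genes. The cause of these moves was not tested. With a replicate block, iPSC above Stage1 was 5.12% and below 0.440%. Deviations of same-numbered libraries from their stage means correlated between -0.0645 and 0.0656 over the tested regions. With so few reads per region a shared origin of same-numbered libraries could go unseen, so pairing is not settled by these values. Few reads per region limit all region calls.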
